A study of Mus musculus with 3 samples.

Results

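The 10 genes described here, Actn2, Actn3, Myoz1, Myoz2, Ldb3, Tcap, Csrp3, Ankrd1, Ankrd2 and Xirp1, encode proteins of the muscle Z-disc and proteins that respond to stretch. They were listed by name, by a rule that uses no measured value but was written with earlier results of these data known, and are 10 of 18193 genes that had a probe set with a single gene symbol. Each probe set consists of several short probes for the same transcript, and 14 probe sets carried the symbols of the 10 genes. Of these genes, 7 had 1 probe set, Myoz1 and Ankrd1 had 2 each, and Ldb3 had 3. Gastrocnemius muscle of male C57BL/6J mice was measured on 3 Affymetrix mouse arrays, with 1 array a group, on which the samples of that group were pooled. The Control group was fed D12450B (10% kcal fat), the HF group D12492 (60% kcal fat), and the HF + SFC group the D12492 diet supplemented with sodium ferrous citrate (SFC), an iron salt, at 0.023% by weight. The paper lists as limits that the Control diet held more sucrose than the HF diet, and that HF mice took in more calories than Control mice. The labels name no transgene or deletion in any group. Feeding began at 6 weeks of age and lasted 15 weeks, but in the labels of the samples the age is written as 21 months. The number of mice in each mix was not given in the sources used here. As each group had 1 pooled array, no difference below has a replicate check, no statistical test was run, and the spread between mice is unknown.

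The Z-disc borders each sarcomere, the contractile unit of striated muscle. There alpha-actinin cross-links actin filaments from neighbouring sarcomeres, titin is anchored, and small adaptor proteins tie the filaments to signalling enzymes such as calcineurin. Some of these adaptors also enter the nucleus or change in amount when muscle is stretched, overloaded or injured, and several differ between slow fibres, which are oxidative and fatigue resistant, and fast fibres, which are glycolytic. Gastrocnemius of the mouse is mostly fast.

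The values are MAS5 signals, background-corrected probe set brightness on a linear scale, and a ratio is the log2 of one array's signal over another's on the brightest probe set of each gene. The trimmed mean signal was 500.0 on each array. All 6 skeletal muscle markers were bright, with no reading below 37327. The beta-actin control probe sets at the 3' and 5' ends, whose ratio reflects RNA integrity, had ratios of 1.09, 1.52 and 1.15 on the Control, HF and HF + SFC arrays, and the Gapdh ratio was 0.842, 0.832 and 0.820. Where a gene had 2 probe sets above the 75th percentile of signal (1489 genes), their log2 ratios differed with an SD of 0.23 for HF against Control, 0.21 for HF + SFC against HF and 0.19 for HF + SFC against Control. That disagreement includes no spread between animals. The 75th percentile of gene signal was 826, and the 4548 genes above it are called bright here. Of the 10 genes, 9 were bright, and Ankrd1 lay between the median of 160 and the 75th percentile.

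**Figure D1:**
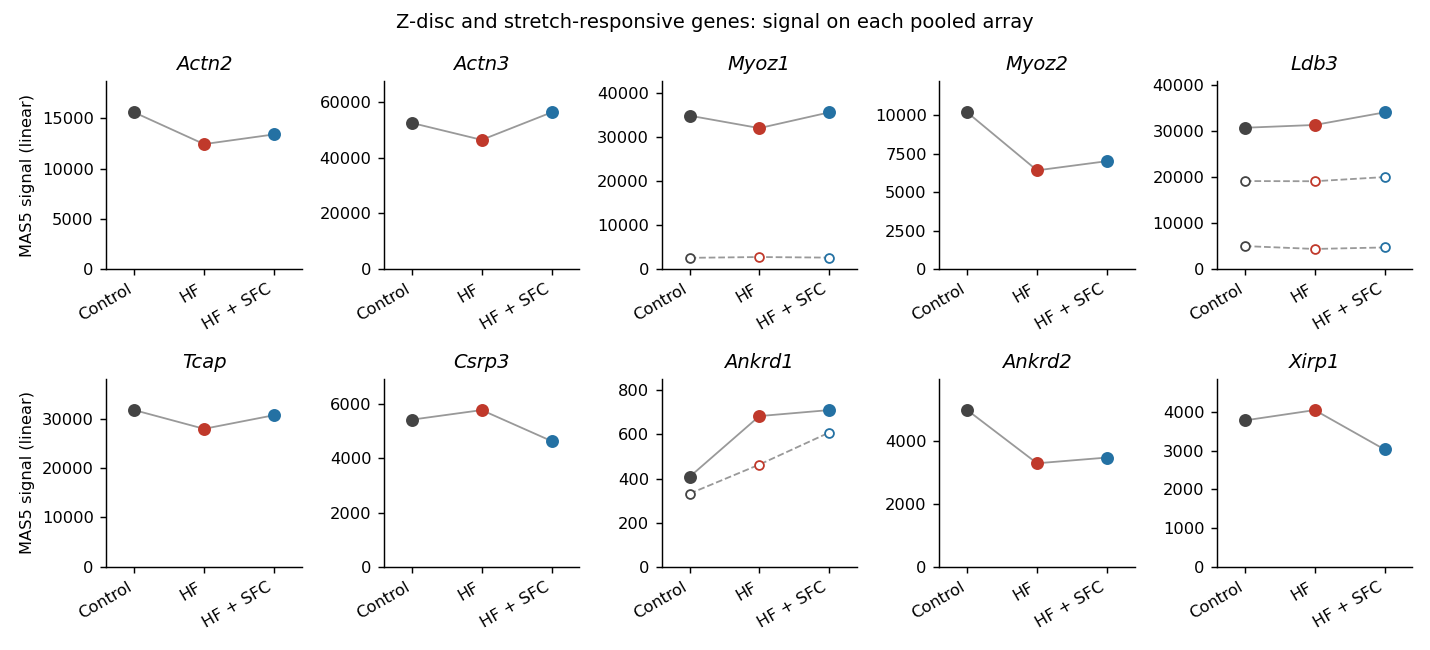
MAS5 signal (linear, axes from 0, scaled per gene) of each gene on the pooled Control, HF and HF + SFC arrays. Filled points joined by solid lines are the brightest probe set and open points on dashed lines the other probe sets of the gene; no error bars are drawn because each group had 1 array. Ankrd1 stood at 408 on Control and at 683 and 711 on the other arrays, while Myoz2 and Ankrd2 were highest on Control.

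Between HF and Control, the genes spread in both directions. Ankrd1 was 1.68-fold higher in HF, Myoz2 was 1.59-fold lower and Ankrd2 was 1.51-fold lower. With ratios centred on the median of 14 fast fibre markers, neither lower gene reached 1.5-fold (log2 ratio -0.56 for Myoz2 and -0.49 for Ankrd2). The remaining 7 genes lay within 1.5-fold. Thus 1 of 10 was at least 1.5-fold higher, against 17% of all genes, 1.08% of bright genes and 4.27% of genes between the median and the 75th percentile. At least 1.5-fold lower were 2 of 10, against 12.2% of all genes and 0.923% of bright genes. Dim genes passed 1.5-fold more often than bright ones, as the plot of ratio against signal shows. Of the 10, 4 were higher and 6 lower by any amount (50.7% and 49.3% of all genes, 43.3% and 56.7% of bright genes), and the median log2 ratio was -0.15, against 0.0066 over all genes and -0.03 over bright genes.

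Between HF + SFC and HF, which share the HF array with the comparison above, none of the 10 genes reached 1.5-fold in either direction. Over all genes 13.7% were at least 1.5-fold higher and 13.5% lower, and over bright genes 0.088% and 0.352%. Of genes between the median and the 75th percentile, 1.8% were at least 1.5-fold higher. On the deposited scale 8 of 10 were higher (51.4% of all genes and 55.8% of bright genes), 2 were lower (48.6% and 44.2%) and the median log2 ratio was 0.11, but with the ratios centred on the fast fibre markers 7 of those 8 turned lower and the median was -0.09. The exception was Actn3. The 2 lower genes, Csrp3 and Xirp1, were lower on every scale tried, and centred on the fast fibre markers Xirp1 passed 1.5-fold (-0.62).

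Between HF + SFC and Control, Ankrd1 was 1.74-fold higher and no gene was 1.5-fold lower, though Myoz2 (log2 ratio -0.63) and Ankrd2 (-0.62) were with each array centred on its median. At least 1.5-fold higher were 16.5% of all genes, 0.594% of bright genes and 3.23% of genes between the median and the 75th percentile, and at least 1.5-fold lower were 12.4% of all genes and 0.748% of bright genes. By any amount 4 were higher and 6 lower (52.4% and 47.6% of all genes, 49.6% and 50.4% of bright genes), with a median log2 ratio of -0.13. Across the 3 arrays, 6 genes were lowest on HF, 2 on Control (Ldb3 and Ankrd1) and 2 on HF + SFC (Csrp3 and Xirp1).

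**Figure D2:**
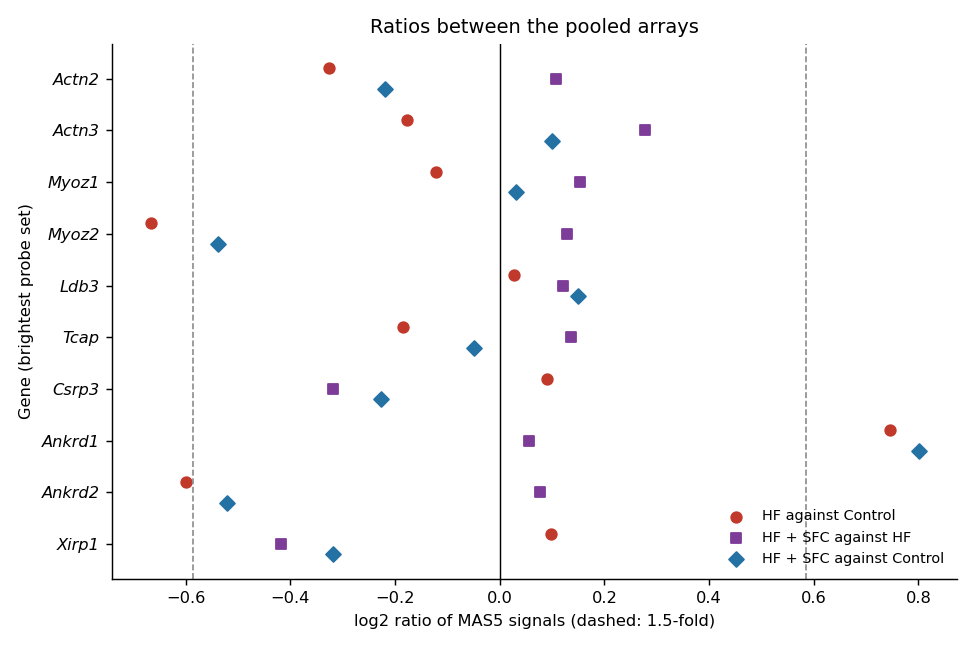
Log2 ratio of MAS5 signals for each gene on its brightest probe set, for HF against Control (circles), HF + SFC against HF (squares) and HF + SFC against Control (diamonds); dashed lines mark 1.5-fold, and the comparisons share arrays. Ankrd1 lies past the upper line in both comparisons with Control, at 0.74 and 0.80, and Myoz2 (-0.67) and Ankrd2 (-0.60) lie past the lower line for HF against Control only.

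The alpha-actinins are the main cross-linkers of the Z-disc. Actn2 is present in all fibres and in heart, and Actn3 is restricted to fast fibres. Actn2 had a signal of 15588 on Control, 12431 on HF and 13395 on HF + SFC. It was highest on Control, and its log2 ratios were -0.33 for HF against Control, 0.11 for HF + SFC against HF and -0.22 for HF + SFC against Control. Of bright genes, 4.90% had a ratio as low as Actn2 in HF against Control. Actn3 had 52417, 46351 and 56212 in the same order. It was lowest on HF and highest on HF + SFC, with log2 ratios of -0.18, 0.28 and 0.10, and 3.56% of bright genes were as high in HF + SFC against HF. Readings of Actn3 reached 80.2% to 85.1% of the highest signal of their array, and whether the upper end of the scale compressed them was not tested. The ratio of Actn2 to Actn3 was thus lower on HF + SFC than on Control by 0.32 on the log2 scale. The related Actn1 and Actn4, which act outside the sarcomere, had 704, 744 and 759 for Actn1 and 1595, 1849 and 1584 for Actn4, and both lay within 1.5-fold in each comparison.

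The myozenins bind alpha-actinin, filamin C and the phosphatase calcineurin. Myoz1 is the form of fast fibres and Myoz2 that of slow fibres and heart. Myoz1 had 34831 on Control, 32002 on HF and 35575 on HF + SFC, close to one another, with log2 ratios of -0.12, 0.15 and 0.03. Its other probe set had 2565, 2745 and 2613, a difference of opposite sign for HF against Control (0.10), so no direction is given for Myoz1. Myoz2 had 10173 on Control, 6409 on HF and 7006 on HF + SFC. Both arrays of mice on the high-fat diets were well below Control for Myoz2, with log2 ratios of -0.67 for HF and -0.54 for HF + SFC, and they were close to each other (0.13). Among bright genes 0.638% were as low as Myoz2 in HF against Control and 0.989% in HF + SFC against Control. Relative to Myoz1, Myoz2 was lower by 0.54 on the log2 scale in HF and by 0.57 in HF + SFC than in Control. Myoz2 had 1 probe set, so this has no check by a second set of probes. The 250 bases before a RefSeq start site of Myoz2 are shown because Myoz2 differed most in HF of the 9 bright genes. They lie at chr3:123034988-123035237 of GRCm38.p6 on the minus strand. The RefSeq span of the gene reaches to 123035003, so the E-box beginning 12 bases before this start lies within the gene. Capitals mark motif matches on either strand, which are a MEF2 match 33 to 24 bases before the start and E-boxes (CANNTG) beginning 22 and 12 bases before it.
Myoz2: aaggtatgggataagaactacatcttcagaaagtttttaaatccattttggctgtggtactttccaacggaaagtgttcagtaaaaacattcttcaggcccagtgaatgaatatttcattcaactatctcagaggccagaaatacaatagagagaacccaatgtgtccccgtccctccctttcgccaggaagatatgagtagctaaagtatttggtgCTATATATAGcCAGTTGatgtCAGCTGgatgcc
MEF2 factors and the E-box binding MyoD family are regulators of muscle genes. A MEF2 match was present in 2.92% of 32851 RefSeq windows of this length and an E-box in 66.2%. A match describes letters only, and binding was not measured.

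Ldb3 is a PDZ and LIM domain protein that holds alpha-actinin to the Z-disc, and Tcap (telethonin) caps the end of titin. Ldb3 had 30753, 31362 and 34098 on Control, HF and HF + SFC, with log2 ratios of 0.03, 0.12 and 0.15. Its other probe sets had 19158, 19119 and 20025, and 5012, 4388 and 4716. The 3 probe sets of Ldb3 gave 0.03, 0.00 and -0.19 for HF against Control, so they shared no direction there, while all exceeded 0 for HF + SFC against HF (0.12, 0.07 and 0.10). Tcap had 31768, 27968 and 30723. It was lowest on HF, with log2 ratios of -0.18, 0.14 and -0.05, each smaller in size than the SD between probe sets of a gene given above.

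The stretch-responsive genes gave 3 different patterns. Ankrd1 and Ankrd2 are muscle ankyrin repeat proteins, which bind titin in the I-band and can move to the nucleus when muscle is stretched. Ankrd1 is low in healthy skeletal muscle and is induced by injury, denervation and stretch. It had a signal of 408 on Control, 683 on HF and 711 on HF + SFC. Both high-fat arrays were higher than Control, 1.68-fold and 1.74-fold, and differed from each other by 0.06 on the log2 scale on this probe set. Of genes between the median and the 75th percentile of signal, 2.0% were as high in HF against Control and 1.19% in HF + SFC against Control. The other Ankrd1 probe set had 332, 464 and 609. It also placed both high-fat arrays above Control, with 1.40-fold for HF and 1.84-fold for HF + SFC, and in HF it did not reach 1.5-fold. On this probe set HF + SFC was 1.31-fold above HF (log2 ratio 0.39), so the probe sets of Ankrd1 differ on whether the high-fat arrays were close.

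Ankrd2, which is more abundant in slow than in fast fibres, had 4971 on Control, 3284 on HF and 3465 on HF + SFC. Here both high-fat arrays were lower than Control, with log2 ratios of -0.60 and -0.52, and close to each other (0.08). Of bright genes 0.858% were as low in HF against Control and 1.08% in HF + SFC against Control. Ankrd2 had 1 probe set. At 1.51-fold it lay just past the threshold, and it was within it (-0.57) when ratios were centred on bright genes. The ratio of Ankrd1 to Ankrd2 was 2.54-fold higher on HF than on Control, so these ankyrin repeat genes differed in opposite directions on the same arrays.

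Csrp3 (muscle LIM protein) binds alpha-actinin and telethonin, and Xirp1 (Xin) is an actin-binding repeat protein that appears at sites of sarcomere damage. Csrp3 had 5432 on Control, 5785 on HF and 4642 on HF + SFC. Xirp1 had 3787, 4054 and 3036. Both were lowest on HF + SFC and slightly above Control on HF. For HF + SFC against HF the log2 ratios were -0.42 for Xirp1, a 1.34-fold lower signal, and -0.32 for Csrp3. Among bright genes 1.06% were as low as Xirp1 and 2.84% as low as Csrp3 in this comparison. Each had 1 probe set.

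The upstream sequences of Ankrd1, Ankrd2 and Csrp3 follow, since these genes stand for the 3 patterns. Each sequence is the 250 bases before a start site in the RefSeq table of GRCm38.p6. They lie at chr19:36119845-36120094 on the minus strand for Ankrd1, at chr19:42035777-42036026 on the plus strand for Ankrd2, and at chr7:48848052-48848301 on the minus strand for the upstream one of both Csrp3 starts. Capitals mark M-CAT matches (GGAATG or CATTCC), the element bound by TEAD factors, in Ankrd1, and E-boxes (CANNTG) in all 3.
Ankrd1: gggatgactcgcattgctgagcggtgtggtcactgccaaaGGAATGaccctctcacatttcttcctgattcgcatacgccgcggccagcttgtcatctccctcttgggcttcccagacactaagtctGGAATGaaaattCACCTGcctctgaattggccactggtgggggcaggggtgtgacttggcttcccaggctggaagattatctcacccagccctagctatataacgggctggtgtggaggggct
Ankrd2: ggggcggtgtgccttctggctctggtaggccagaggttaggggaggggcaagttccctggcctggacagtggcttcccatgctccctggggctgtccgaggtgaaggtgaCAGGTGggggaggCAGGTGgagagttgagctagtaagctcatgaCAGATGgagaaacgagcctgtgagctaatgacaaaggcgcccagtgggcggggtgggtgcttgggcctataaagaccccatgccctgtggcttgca
Csrp3: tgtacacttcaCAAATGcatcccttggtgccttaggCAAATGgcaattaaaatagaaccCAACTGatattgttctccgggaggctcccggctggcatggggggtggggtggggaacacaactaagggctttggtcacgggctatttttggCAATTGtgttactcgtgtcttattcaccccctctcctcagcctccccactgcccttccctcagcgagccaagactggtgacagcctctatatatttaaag
Ankrd1 had M-CAT matches beginning 210 and 123 bases before its start and an E-box at 111. An M-CAT match was found in 12.6% of all windows, and 2 or more in 1.02%. Ankrd2 had E-boxes at 140, 127 and 96 bases, Csrp3 had 4 at each of its starts, and Actn2 had 3. The RefSeq span of Csrp3 reaches to 48848051, so the window of its other start, not printed here, lies within the gene. The RefSeq span of the Ankrd2 gene begins at 42035917, inside its window, so the E-box at 96 bases lies within the gene. Ldb3 had 1 CArG box, the element of serum response factor, which 1.47% of windows held. Its 2 start sites share this match because their windows overlap. The RefSeq span of Ldb3 reaches to 34590314, so both windows lie within the gene. RefSeq windows were matched for 6 of the 10 genes, and Actn3, Myoz1, Tcap and Xirp1 are named only.

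**Figure D3:**
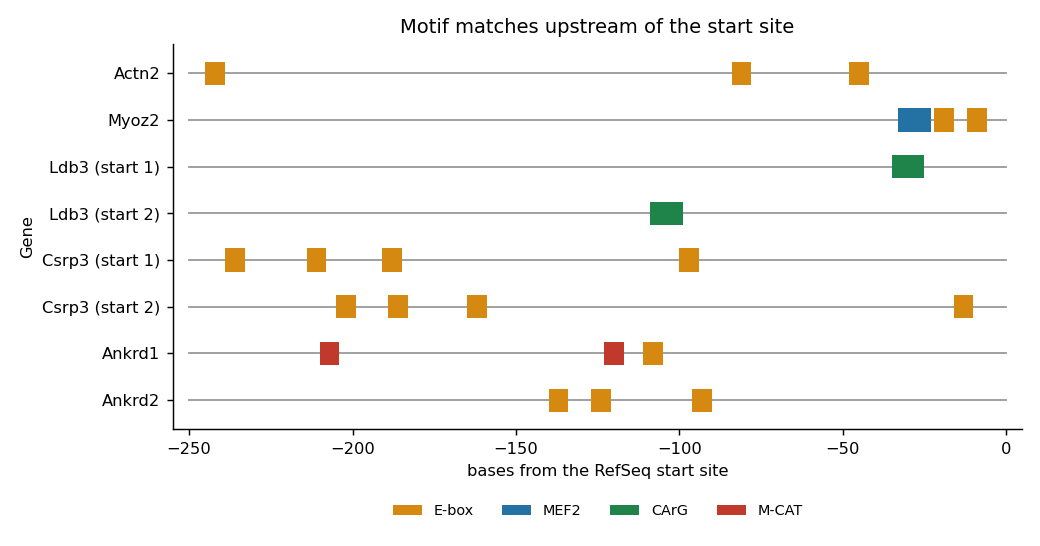
Positions of motif matches in the 250 bases before each RefSeq start site of the 6 matched genes (x axis: bases from the start site at 0; coloured bars: matches, drawn to length; Csrp3 and Ldb3 have 2 starts each). Ankrd1 alone among these has M-CAT matches, at 210 and 123 bases, and Myoz2 alone has a MEF2 match, at 33 bases.

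**Figure D4:**
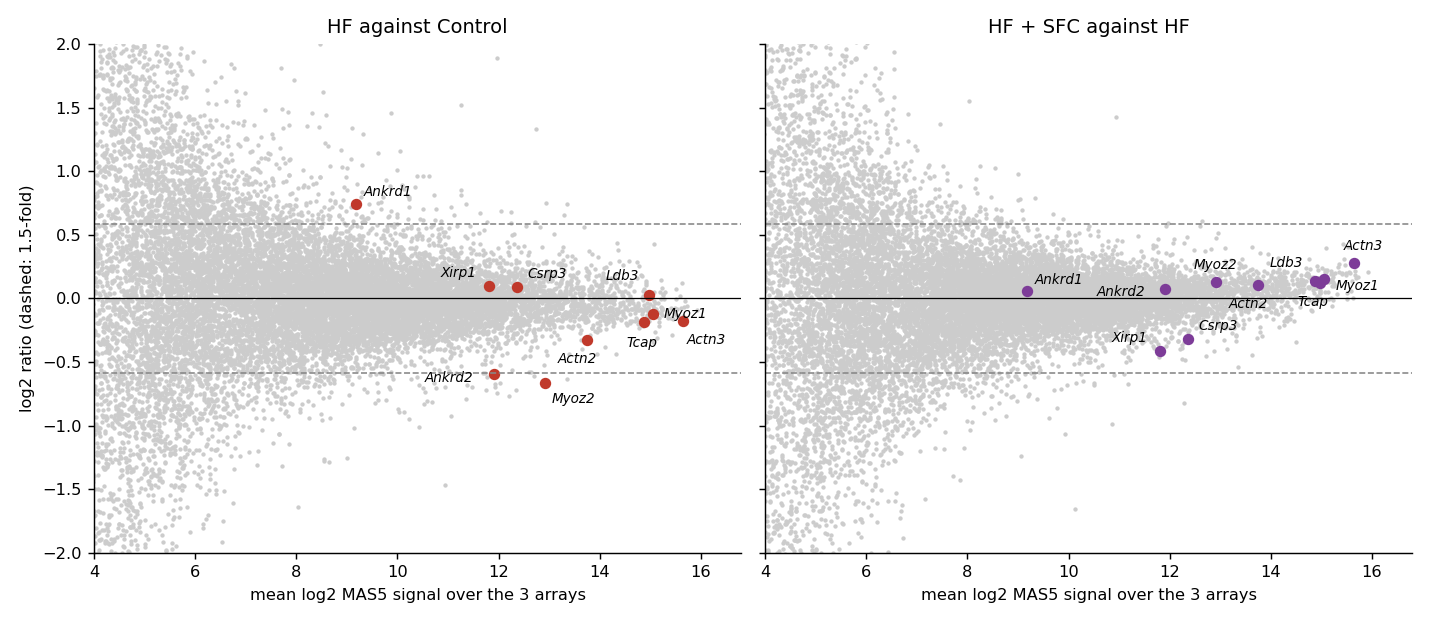
Log2 ratio (y axis) against mean log2 MAS5 signal over the 3 arrays (x axis) for all genes (grey; ratios beyond 2 in size and the dimmest genes lie outside the axes) and the 10 named genes (coloured), for HF against Control on the left and HF + SFC against HF on the right; dashed lines mark 1.5-fold. Grey points scatter most at low signal, Ankrd1, Myoz2 and Ankrd2 lie past the lines on the left, and none of the 10 does on the right.

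Because Myoz2 and Ankrd2 are genes of slow fibres, their values are set beside 10 slow fibre markers, sarcomere and calcium-handling genes. In HF against Control, 8 of 10 slow markers were lower (49.3% of all genes and 56.7% of bright genes), with a median log2 ratio of -0.44. Myoz2 lay below all 10 of them, and Ankrd2 below 9 of 10, with only Tpm3, a tropomyosin (8056, 5274 and 6826), lower at -0.61. In HF + SFC against HF, 9 of 10 slow markers were higher (51.4% of all genes and 55.8% of bright genes), with a median of 0.40. Among these was Tnnc1, the slow troponin C (7094, 4754 and 7059). Myoz2 (0.13) and Ankrd2 (0.08) were below 9 of the 10 in that comparison, the exception being Casq2 (965, 1486 and 1181), the cardiac form of calsequestrin. Against Control, the slow markers in HF + SFC had a median of 0.03 and ranged from -0.24 to 0.51, so that Myoz2 at -0.54 and Ankrd2 at -0.52 lay below all 10. The summed signal of the slow markers was 92804 on Control, 69310 on HF and 89019 on HF + SFC. In whole muscle, fewer fibres of a type and less RNA per fibre cannot be told apart, and with 1 array a group the difference between these genes and the slow markers could not be tested.

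**Figure D5:**
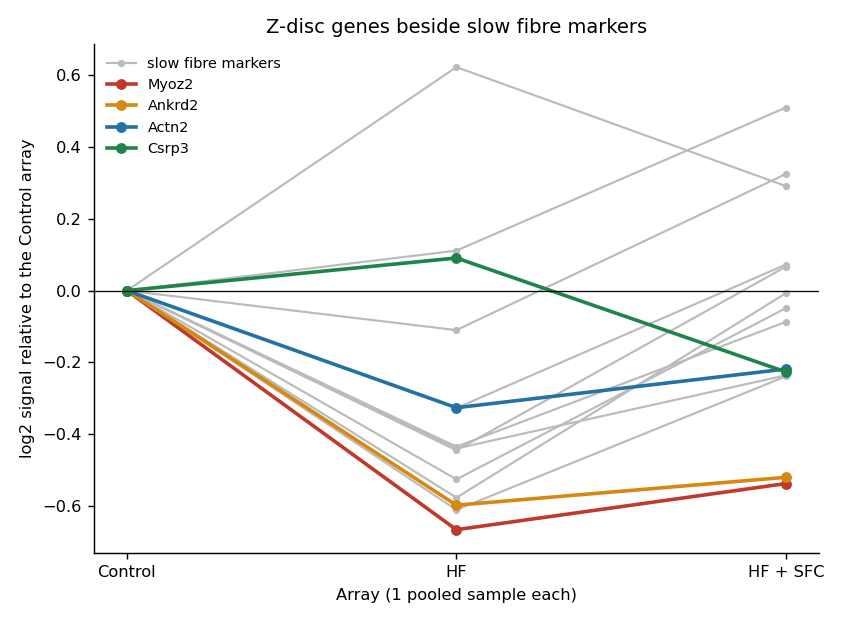
Log2 signal relative to the Control array (y axis) on the 3 pooled arrays (x axis) for 10 slow fibre markers (grey lines) and for Myoz2, Ankrd2, Actn2 and Csrp3 (coloured lines); each point is 1 array. On HF + SFC the slow markers lie between -0.24 and 0.51, Myoz2 at -0.54 and Ankrd2 at -0.52.

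The fast fibre markers differed less. No reading of theirs was below 30006, and Tnnt3 had the highest signal of each array (61584, 57775 and 66676). Whether the upper end of the scale compressed their ratios was not tested, which also limits ratios centred on them. For HF against Control all 14 were lower (49.3% of all genes), with a median log2 ratio of -0.11. For HF + SFC against HF all 14 were higher (51.4% of all genes), with a median of 0.20. Actn3 (-0.18 and 0.28), Tcap (-0.18 and 0.14) and Myoz1 on its brightest probe set (-0.12 and 0.15) had the same signs. These signs were not particular to fast genes. All 6 skeletal muscle markers, some of them also in the fast list, had them (medians -0.11 and 0.21), as did the slow marker medians (-0.44 and 0.40). The fast genes Tnnc2, fast troponin C (36089, 30006 and 39399), and Pfkm, muscle phosphofructokinase (38127, 30037 and 35085), had the most extreme ratios of that list.

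Other proteins of the Z-disc were closer to 0 than the leading genes. The list of partners had 24 measured genes. None reached 1.5-fold in any comparison. In HF against Control 12 were higher and 12 lower (50.7% and 49.3% of all genes), with a median of -0.00034. Their log2 ratios ran from -0.24 for Capzb, the actin capping protein (8344, 7045 and 8069), to 0.20 for Pdlim3 (15701, 18062 and 17482). Myoz2, Ankrd2 and Actn2 were below all 24 in that comparison and Ankrd1 was above all 24. In HF + SFC against HF, 19 of 24 were higher (51.4% of all genes and 55.8% of bright genes), with a median of 0.06. The median there was 0.02 over bright genes and 0.20 over the fast fibre markers. Csrp3 and Xirp1 were below all 24 partners. The lowest partner there was Flnc, filamin C, a binding partner of Xin and the myozenins, at 5780, 5092 and 4629 (-0.14). Des, the intermediate filament desmin, had 31925, 27999 and 33372, and Synpo2l had 6316, 7119 and 8049.

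In neighbouring structures few genes passed 1.5-fold. Of 8 M-band genes none did, and for HF + SFC against HF they ranged from -0.39 to 0.15 on the log2 scale, while the ubiquitin ligase Trim63 had 22109, 19731 and 17039. Of 18 costamere genes, which link Z-discs to the membrane, 1 was lower by 1.5-fold or more on HF, the syntrophin Sntb1 at 363, 228 and 229. At least 1.5-fold lower in that comparison were 12.2% of all genes and 0.923% of bright genes. Costamere ratios ranged from -0.67 to 0.43 there. The 8 Z-disc chaperones had medians of 0.0021, -0.04 and -0.03 for HF against Control, HF + SFC against HF and HF + SFC against Control.

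Markers of other cell types also differed between the arrays. Unless stated otherwise, the counts given here are of markers higher in HF against Control. In that comparison 50.7% of all genes and 43.3% of bright genes were higher. The summed signal of 6 adipocyte markers was 2054 on Control, 7056 on HF and 4893 on HF + SFC, and 5 of 6 were higher in HF than in Control. Adipoq (901, 4637 and 2915) made up most of the adipocyte sum on HF. For 9 fibroblast markers the sums were 34348, 44002 and 42747 (8 higher). For 6 tendon markers they were 10785, 15308 and 17407 (5 higher), and for 10 leukocyte markers 3158, 4008 and 3823 (9 higher). The tendon sum rose from HF to HF + SFC with Fmod (5106, 7527 and 9839). For HF + SFC against HF, 2 tendon markers were higher and 4 lower (51.4% and 48.6% of all genes), with a median log2 ratio of -0.06. Endothelial markers summed to 6045, 6352 and 6182 (6 of 8 higher), and smooth muscle markers to 12024, 13553 and 11662 (4 of 4 higher). No marker was at 0, since MAS5 gives a positive reading to every probe set, and the lowest of these markers was Lep at 45.8 on Control. The part of these cells in the Ankrd1 difference was not tested. The 3' to 5' ratio of beta-actin was highest on HF, the array on which 6 of the 10 genes were lowest, and its part was not tested.

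The gene with the widest range over the arrays was Ankrd1. Among 4548 bright genes, the 5 with the nearest pair of log2 ratios (HF against Control and HF + SFC against HF) were Mir22hg, Cilp, Prg4, Tceal7 and Dusp1, at Euclidean distances of 0.03 to 0.13 over 3 arrays. Mir22hg, the host transcript of a microRNA, had 856, 1408 and 1449. Cilp, a cartilage matrix protein, had 1486, 2443 and 2667, and Dusp1, a phosphatase of MAP kinases, had 2977, 4787 and 5389. With 3 arrays, a near pattern rests on 2 ratios and is a description only.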

How the data were processed

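Gastrocnemius RNA was labelled as biotinylated cRNA and hybridised to 1 array a group, and the study describes each array as a mix of all samples' cDNAs. The deposited values are linear MAS5 intensities of 45101 probe sets made by the authors, and the MAS5 version was not given in the sources used here. No detection calls were used. Of the probe sets, 64 were controls, 34945 carried 1 gene symbol in the array annotation, 932 several and 9160 none. Current symbols came from a RefSeq table (GRCm38.p6), in which the gene ID of 34741 probe sets was found. Each gene took its brightest probe set (highest mean log2 intensity), and log2 ratios had no offset. The 1.5-fold threshold is the one used in the study. The 10 genes and the 16 gene lists were chosen with earlier results of these data known. Genes named beside the 10 are those of highest or lowest ratio in a list, if brighter than the median gene, and the 5 nearest patterns. This rule does not name Actn1, added for its family, Tnnt3, added as the highest signal, or Adipoq, added for its part in the adipocyte sum. The motifs were searched on both strands. Alternatives were 10 planned settings and 1 chosen after seeing the data, centring on fast fibre markers. The ratio step was tested on simulated arrays with known differences, in which bright genes were given less scatter than on the real arrays. Computations used Python 3.11.15, numpy 2.4.6 and pandas 2.3.3, and figures matplotlib 3.10.9. With 3 arrays, precision is limited by their number.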

Additional observations from a re-analysis of the deposited data

How the results depend on the processing

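No paired analysis was possible because each group had 1 array. Of 93 recomputed medians and counts over the 10 genes, 80 kept their value within the tolerance and 13 did not. Leaving out probe sets marked _x_ or _s_ in their names, or leaving out dim probe sets, removed no probe set of the 10 genes. The 9 values from each of these settings were thus fixed in advance and are among the 80. So are 3 counts at 2-fold, which were already 0 at 1.5-fold and could not change. A median was held to have moved when it shifted by more than the disagreement of a probe set (log2 0.16 for HF against Control, 0.15 for HF + SFC against HF and 0.13 for HF + SFC against Control). With the next brightest probe set, which only Myoz1, Ldb3 and Ankrd1 have, the median was 0.098 for HF against Control and 0.064 for HF + SFC against Control, and 0 genes were 1.5-fold higher or lower in HF than in Control. At 2-fold, 0 genes were called in either direction for HF against Control, and 0 were higher for HF + SFC against Control. Centred on bright genes, 1 gene (Myoz2) was at least 1.5-fold lower in HF. Centring arrays on their medians put 2 genes 1.5-fold lower in HF + SFC than in Control. Centring on fast fibre markers, which shifted the median of all genes by 0.11, -0.20 and -0.09 in the order of comparisons above, left 0 genes 1.5-fold lower for HF against Control, 1 for HF + SFC against HF and 2 for HF + SFC against Control, and the median for HF + SFC against HF was -0.088. The signs of Ldb3 for HF against Control and of Myoz1 for HF + SFC against Control turned under some normalizations, and Actn3 was tied (0) for HF + SFC against Control after quantile normalization. The adipocyte marker median reversed on the next brightest probe set, held by 2 genes, to -1.01 for HF against Control and -1.66 for HF + SFC against Control, and the cause was not tested. Low signal limits Ankrd1 most, as genes of its brightness scatter more than bright ones.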

Other observations

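Target genes of YAP and TEAD, the factors that bind M-CAT elements and act in mechanical signalling, went in both directions. For HF against Control, 14 of 21 were higher (50.7% of all genes and 43.3% of bright genes). Past 1.5-fold, 4 were higher and 2 lower, where 17% of all genes were higher and 12.2% lower by as much, so these counts are near the background. The median log2 ratio was 0.16 for HF against Control, 0.09 for HF + SFC against HF and 0.23 for HF + SFC against Control. Ccdc80, a secreted matrix protein, had signals of 683 on Control, 1372 on HF and 1125 on HF + SFC. Gadd45a, a stress-induced gene that muscle also induces on denervation, had 1812, 941 and 999. Only 15 of the 21 lay above the median signal of all genes.

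Genes of muscle regeneration and denervation showed no common direction, with 4 of 11 higher and 7 lower for HF against Control (50.7% and 49.3% of all genes). For HF + SFC against HF, 7 were higher and 4 lower (51.4% and 48.6% of all genes), with a median log2 ratio of 0.28, and 2 were at least 1.5-fold higher and 1 lower (13.7% and 13.5% of all genes). For HF + SFC against Control, 6 were higher and 5 lower (52.4% and 47.6% of all genes), with 3 at least 1.5-fold higher (16.5% of all genes). Myh8, the perinatal myosin heavy chain, had 123 on Control, 310 on HF and 253 on HF + SFC. Myog, the transcription factor myogenin, had 331, 247 and 273. Of the 11 genes, 5 lay above the median signal.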
